A study of Mus musculus with 8 samples.

Results

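The genes described here encode the proteins of the mitochondrial ribosome, and were measured in group 2 innate lymphoid cells (ILC2) sorted from the thymus of Il25 KO and WT mice. They were taken as every gene whose symbol starts with Mrpl or Mrps followed by a number, which gave 72 of the 10913 genes in the table, 43 named for the large subunit and 29 for the small subunit. The cells came from young male mice in both groups, the WT mice being age-matched, and the series title calls the cells untreated. Each group had 4 libraries, made by MARS-seq, which counts the 3′ end of each poly(A) RNA molecule once through a unique molecular identifier (UMI). The labels give Il25 KO as the genotype, with no strain and no account of how the allele was made or in which cells it is lost. IL-25 is a cytokine that acts on ILC2 from outside the cell, and the Il25 gene itself was not analysed here, so the genotype could not be checked on it. The labels call the libraries replicates without saying that each came from its own animal, and p-values here weigh a difference against the spread among libraries, which may be technical.

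The mitochondrial ribosome translates the few respiratory chain and ATP synthase subunits that are still encoded by mitochondrial DNA. Its RNAs are made inside the organelle, whereas all of its proteins are encoded in the nucleus, made on cytosolic ribosomes and imported. The small subunit binds the mRNA and decodes it, and the large subunit joins the amino acids and holds the exit tunnel at the inner membrane. Some of the proteins have counterparts in bacterial ribosomes and others occur in mitochondria alone.

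Libraries held 1915365 to 3250718 UMIs. Il25 KO replicate 3 stood apart with low values of many members, and results that it moved by a large factor are also given without it. Of the 11 ILC2 marker genes in the table, the summed level lay between 2119 and 2353 counts per 1e6 (CPM) in Il25 KO and between 1934 and 2090 CPM in WT. The groups did not overlap in this sum. Hes1, the most abundant of them, had means of 1063 CPM in Il25 KO and 856 CPM in WT, and weighed heavily in it. Tcf7, the next, went the other way, at 547 and 625 CPM. Hes1, Il17rb and Areg lay wholly higher in Il25 KO, as did 2.92% of all tested genes. The other ILC2 markers, Gata3, Il7r, Id2 and Il2ra among them, overlapped between the groups. The 17 thymocyte and T cell markers summed to 5105 to 5607 CPM in Il25 KO and 4717 to 6218 CPM in WT, and none of the 11 or the 17 was at 0 in all libraries. Their sum hides unlike members. Of the 15 that were tested, Cd2, Cd8b1, Cd3d and Ptcra lay wholly lower in Il25 KO. Their log2 fold changes (Il25 KO over WT) were -1.87, -1.64, -0.73 and -0.66. Dntt, the most abundant, lay wholly higher at 0.25. Over all tested genes, 2.31% lay wholly lower and 2.92% wholly higher. None of the markers was called by edgeR, the lowest adjusted p-values in this list being 0.0521 for Cd3d and 0.0820 for Cd2. WT replicate 1 stood apart in this list, with 78.7 CPM of Cd4 against 0.790 to 6.47 CPM in the other libraries, and 357 CPM of Cd8b1 against 33.7 to 65.2 CPM. The part of other cells in the results below was not tested. The single B cell marker in the table, Cd79b, lay between 50.8 and 61.3 CPM. In bulk libraries, fewer cells of a type and less RNA per cell cannot be told apart.

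Together the members took 0.922% to 1.12% of the UMIs of a library, counted over the 67 that were tested. Because each molecule is counted once at its 3′ end, the CPM of different genes was compared with no correction for length. The mean level over the 8 libraries spanned from 0.976 CPM for Mrps25 to 478 CPM for Mrpl34, the counterpart of bacterial bL34, with a median of 118 CPM. The median was 119 CPM for the large subunit and 108 CPM for the small subunit. Of the 72 members, 42 lay over 100 CPM and 7 under 10 CPM. The 10 highest members held 32.7% of the summed level. For comparison, the median level was 21.5 CPM over the whole table. It was 358 CPM for 86 nuclear genes with symbols of the respiratory chain and ATP synthase, and 1906 CPM for 99 with symbols of the cytosolic ribosome. Both lists were taken by the start of the symbol alone, so they can hold genes outside these complexes. Of the 99, 14 lay under 10 CPM, and of the 86, 2 did.

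Mrpl34 read 467.5, 520.7, 329.2 and 521.5 CPM in Il25 KO replicates 1 to 4 and 526.1, 524.8, 465.7 and 472.0 CPM in WT replicates 1 to 4. Il25 KO replicate 3 was the lowest library and the groups overlapped. Next in the large subunit came Mrpl52, specific to mitochondria, with 264 to 441 CPM in Il25 KO and 359 to 477 CPM in WT. Mrpl18, the counterpart of the protein that binds 5S rRNA in bacteria, spanned 323 to 370 CPM in Il25 KO and 333 to 383 CPM in WT. Mrpl34 was above both in all 8 libraries, and Mrpl52 was above Mrpl18 in 6 of 8. In the small subunit the highest were Mrps24, Mrps12 and Mrps28, with means of 324, 312.8 and 312.6 CPM, and none of the 3 was above another in more than 5 of the 8 libraries.

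At the low end, 5 members did not pass the filter on low counts and were not tested. These were Mrpl1, with 31 UMIs summed over the Il25 KO libraries and 58 over WT, Mrpl19 with 35 and 36, Mrps14 with 27 and 29, Mrps25 with 8 and 14 and Mrps18b with 34 and 16. The 3 lowest tested members of the large subunit were Mrpl15 at 3.52, Mrpl50 at 20.2 and Mrpl23 at 21.8 CPM, and those of the small subunit were Mrps36 at 5.24, Mrps33 at 11.8 and Mrps2 at 36.3 CPM. The 7 members under 10 CPM had a median annotated transcript length of 3556 bases and 5 of them exceeded the median of all tested protein coding genes, 2810 bases. Of the 65 others, 9 exceeded it, and their median was 1219 bases.

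**Figure D1:**
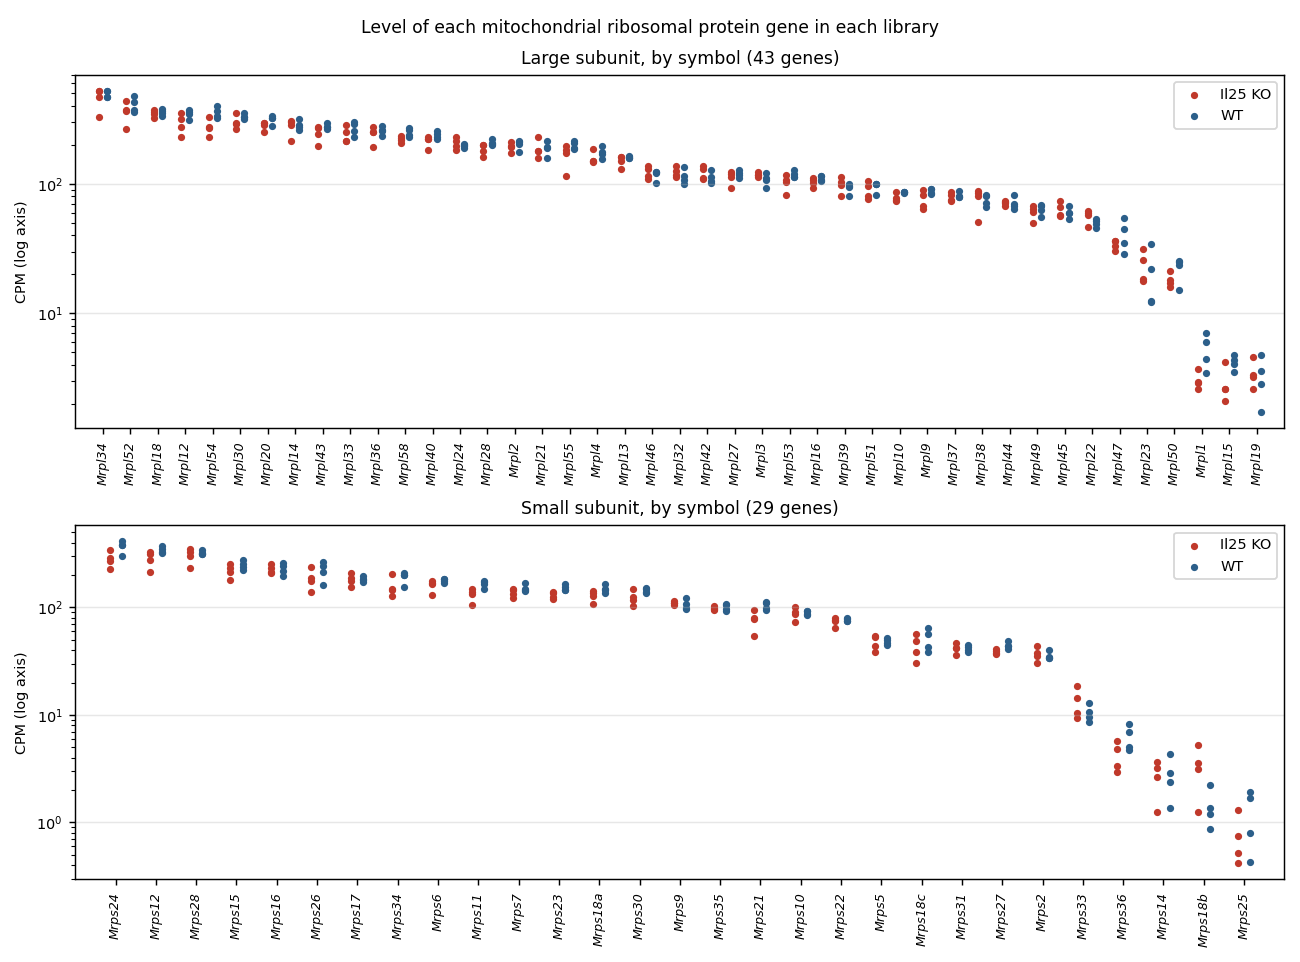
Level of each of the 72 genes in CPM on a log axis, 1 point per library, with Il25 KO in red and WT in blue, large subunit above and small subunit below, sorted by mean. Within each panel the genes span from under 10 CPM to over 300 CPM, and the red and blue points of nearly every gene overlap.

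The genes are dispersed over the genome. They lay on 17 chromosomes, all autosomes, and the largest number on 1 chromosome was 11, on chromosome 11 (GENCODE M21 annotation of mm10). They were short, with a median spliced length of 1251 bases and 5 exons against 2810 bases and 9 exons for the 8633 tested protein coding genes. Many shared a start region with another gene. In 30 of 72 (41.7%) a protein coding gene on the other strand started within 1000 bases, against 1621 of the 8633 (18.8%). Such pairs are called head to head here, whether or not the 2 genes overlap. Mrps11 and Mrpl46, one gene of each subunit, formed such a pair on chromosome 7. Their GENCODE starts lay 412 bases apart, at 78783119 (plus strand) and 78783531 (minus strand), so that the genes overlap there. The RefSeq windows used below place both starts at other positions. Mrps12 was paired with Sars2, the mitochondrial seryl-tRNA synthetase, at 172 bases, Mrpl36 with the complex I gene Ndufs6 at 29 bases, and Mrpl43 with Twnk, the mitochondrial DNA helicase, at 779 bases.

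RefSeq start windows of 300 bases (250 before and 50 after the start, GRCm38.p6) were matched for 63 of the 72 members, in 66 windows. Each was searched on both strands for letters that are known to bind regulators of nuclear genes for mitochondria, namely GCGC, any base and TGCGC for NRF1, CCGGAAG for ETS factors such as GABP, and AAGATGGCG for YY1. None of the 3 motifs contains another. NRF1 letters were in 16.7% of member windows, 11.02% of the windows of tested genes and 4.60% of all windows. ETS letters were in 34.8%, 19.9% and 8.86% in the same order, and YY1 letters in 10.6%, 3.42% and 1.40%. At least 1 of the 3 was in 56.1% of member windows against 30.7% for tested genes. Median GC content was 58.5% for members and 60.7% for tested genes, and both had a median of 21 CpG sites. A match is a description of the letters and not evidence of binding, and many windows had none.

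The windows below belong to the small subunit genes Mrps21, Mrps24 and Mrps11, which had 3 of the 4 lowest p-values among members in the comparison of the groups, to Mrpl46, which lies head to head with Mrps11, and to Mrpl12, whose product sits in the stalk of the large subunit and is also known to bind the mitochondrial RNA polymerase. They are written 5′ to 3′ along the gene, with matches to the 3 motifs in capitals. Mrps21 (chr3:95871465-95871764, minus strand) held an NRF1 and an ETS match, Mrpl12 (chr11:120484387-120484686, plus strand) an NRF1 match, and Mrps24 (chr11:5707652-5707951, minus strand) and Mrps11 (chr7:78782881-78783180, plus strand) a YY1 match each. That of Mrps24 lay near the end of its window, past the start. Mrpl46 (chr7:78783040-78783339, minus strand) held none, and shares 141 bases with the window of Mrps11, read from the other strand.
Mrps21: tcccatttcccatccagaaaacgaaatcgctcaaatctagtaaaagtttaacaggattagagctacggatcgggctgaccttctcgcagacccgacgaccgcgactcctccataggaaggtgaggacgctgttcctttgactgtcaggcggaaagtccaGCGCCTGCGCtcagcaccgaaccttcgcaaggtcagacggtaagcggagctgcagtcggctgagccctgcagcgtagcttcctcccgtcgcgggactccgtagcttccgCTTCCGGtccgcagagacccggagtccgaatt
Mrpl12: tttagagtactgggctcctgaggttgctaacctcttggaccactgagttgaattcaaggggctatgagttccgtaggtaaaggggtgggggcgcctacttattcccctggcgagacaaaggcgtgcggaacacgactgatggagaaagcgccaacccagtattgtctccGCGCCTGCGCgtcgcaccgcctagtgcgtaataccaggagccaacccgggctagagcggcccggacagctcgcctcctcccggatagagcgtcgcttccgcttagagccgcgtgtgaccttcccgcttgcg
Mrps24: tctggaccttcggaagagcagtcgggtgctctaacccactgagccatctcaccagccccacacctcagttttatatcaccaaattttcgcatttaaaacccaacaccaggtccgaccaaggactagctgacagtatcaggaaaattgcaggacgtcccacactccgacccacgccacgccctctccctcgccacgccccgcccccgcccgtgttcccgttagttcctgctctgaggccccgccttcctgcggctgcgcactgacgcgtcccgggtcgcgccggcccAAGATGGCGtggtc
Mrps11: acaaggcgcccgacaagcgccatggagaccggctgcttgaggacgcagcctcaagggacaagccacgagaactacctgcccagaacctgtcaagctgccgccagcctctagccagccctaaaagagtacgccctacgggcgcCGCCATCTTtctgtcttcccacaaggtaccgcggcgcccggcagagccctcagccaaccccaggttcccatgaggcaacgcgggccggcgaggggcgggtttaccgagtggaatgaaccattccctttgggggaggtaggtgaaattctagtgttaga
Mrpl46: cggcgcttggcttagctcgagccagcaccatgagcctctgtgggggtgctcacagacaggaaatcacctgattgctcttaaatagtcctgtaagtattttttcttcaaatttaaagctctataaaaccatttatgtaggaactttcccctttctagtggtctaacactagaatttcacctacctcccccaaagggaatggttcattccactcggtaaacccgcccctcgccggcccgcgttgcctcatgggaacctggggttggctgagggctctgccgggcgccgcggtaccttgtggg

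The comparison of Il25 KO with WT asks whether the cells' program for making mitochondrial ribosomes differs when IL-25 is missing. No member passed the test, and most lay slightly lower in Il25 KO. With edgeR's quasi-likelihood test and Benjamini-Hochberg adjustment over all 9016 tested genes, 0 of 67 tested members were called at 0.05, against 19 of all genes (0.211%), of which 3 were lower in Il25 KO (0.0333%). At an unadjusted p under 0.05 there were 6 members, all with lower values in Il25 KO, against 5.71% of all genes for that direction and 10.8% for either. DESeq2 and limma-voom also called 0 members, with 6 and 8 at an unadjusted p under 0.05. Without Il25 KO replicate 3, edgeR called 0 of 68 members, with 5 at an unadjusted p under 0.05. Without WT replicate 1, it called 0 of 68, with 8, and 56 of the 68 had lower fitted values in Il25 KO. The 5.71% and 10.8% of all genes belong to the main edgeR fit alone. For the refits the shares over all genes are not given here, so these counts cannot be set against them. The fitted log2 fold change (Il25 KO over WT) was below 0 in 53 of 67 members (79.1%), where 50.5% of all genes were below 0. Its median was -0.11 over members and -0.002 over all genes. Among members over 20 CPM, 64 genes, fitted differences ran from 1.37-fold lower to 1.13-fold higher in Il25 KO. The median standard error of a member's log2 fold change was 0.117, so that most of these differences were about the size of their own error. Members varied between libraries of a group about as much as other genes, with a median biological coefficient of variation of 10.9% against 12.3% over all genes.

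**Figure D2:**
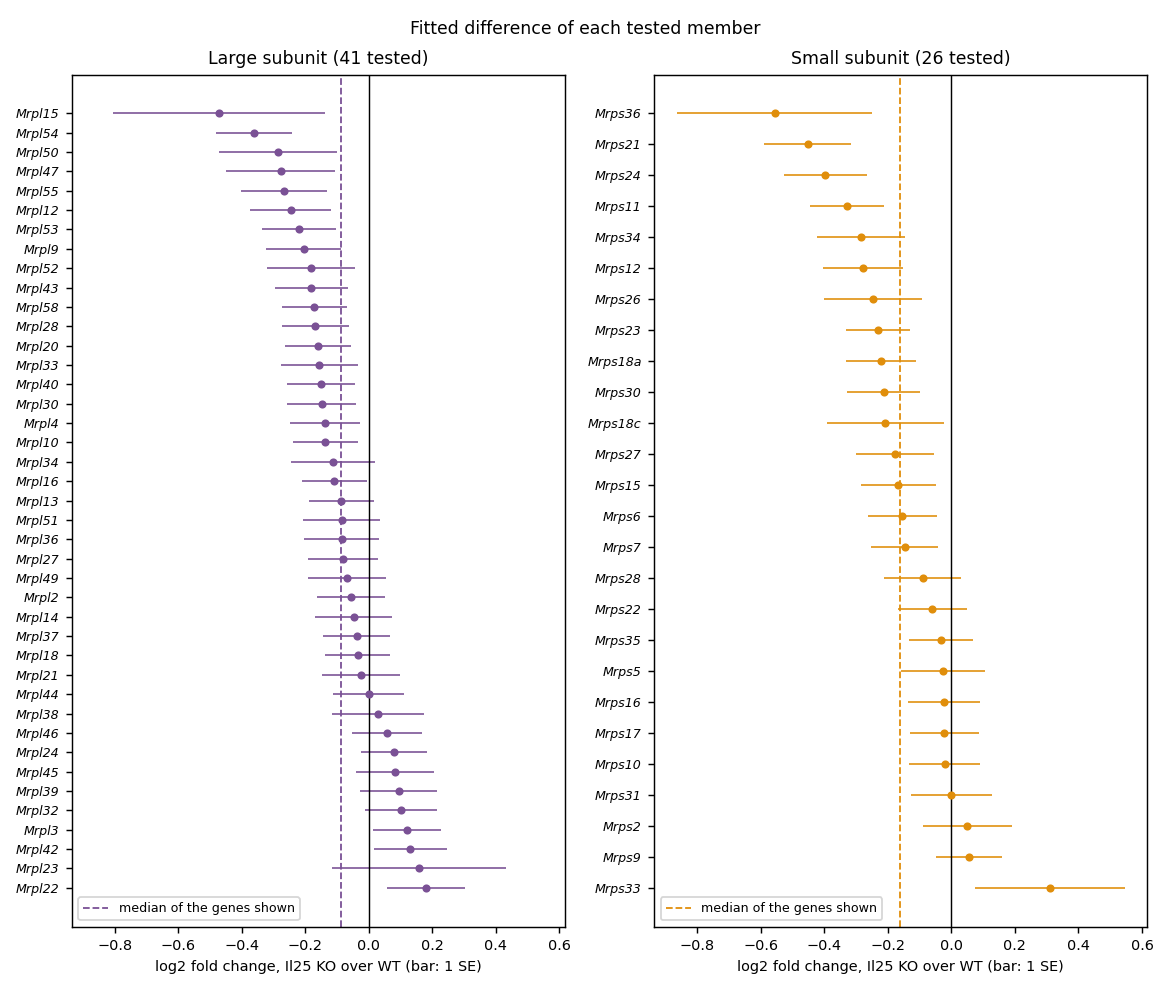
Fitted log2 fold change (Il25 KO over WT) of each tested gene with its standard error, large subunit on the left (41 genes) and small subunit on the right (26 genes). The points lie to the left of 0 in 31 and 22 genes, and no gene passes the adjusted threshold.

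The small subunit held 5 of the 6 members with the lowest p. Mrps21, the counterpart of bacterial bS21, read 53.9, 94.1, 77.7 and 79.5 CPM in Il25 KO replicates 1 to 4 and 99.4, 113.4, 93.8 and 108.9 CPM in WT replicates 1 to 4. The values of Il25 KO replicates 1, 3 and 4 lay below all WT values and Il25 KO replicate 2 lay just above the lowest WT value. Its log2 fold change was -0.45 ± 0.14 (SE), with an adjusted p of 0.218 by edgeR, and leaving out Il25 KO replicate 1, the lowest library, gave -0.32.

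Mrps24, the counterpart of uS3, which lines the path by which mRNA enters the small subunit, read 267.6, 285.3, 225.9 and 341.5 CPM in Il25 KO and 380.2, 411.4, 299.3 and 382.7 CPM in WT. The groups overlapped through a high Il25 KO replicate 4 and a low WT replicate 3. The log2 fold change was -0.40 ± 0.13 (SE) with an adjusted p of 0.253 by edgeR.

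Mrps11, the counterpart of uS11 on the platform of the small subunit, read 139.2, 134.1, 105.2 and 149.0 CPM in Il25 KO and 165.6, 176.3, 147.4 and 172.5 CPM in WT. Only Il25 KO replicate 4 reached the WT range, and the log2 fold change was -0.33 ± 0.12 (SE) with an adjusted p of 0.285 by edgeR. Its head-to-head neighbour Mrpl46, whose window is printed above, read 129.5, 138.7, 108.7 and 115.1 CPM in Il25 KO and 101.9, 121.3, 124.0 and 123.9 CPM in WT. The groups of Mrpl46 overlapped fully, the fitted log2 difference being 0.057 ± 0.11 (SE), and the difference between the pair was not tested.

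Mrps23, a small subunit protein specific to mitochondria, was the one member whose groups did not overlap, where 2.31% of all genes lay wholly lower in Il25 KO. It read 125.8, 135.1, 118.5 and 138.5 CPM in Il25 KO and 153.6, 164.4, 144.7 and 145.1 CPM in WT. The gap between the groups was small beside the spread, and the log2 fold change was -0.23 ± 0.10 (SE) with an adjusted p of 0.410 by edgeR. No member lay wholly higher in Il25 KO, against 2.92% of all genes.

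Mrps12, the counterpart of uS12 at the decoding centre, read 277.7, 324.8, 213.0 and 316.0 CPM in Il25 KO and 348.4, 374.3, 326.4 and 321.7 CPM in WT. Only Il25 KO replicate 2 reached into the WT range, and the log2 fold change was -0.28 ± 0.13 (SE), or -0.16 without Il25 KO replicate 3. Mrps34, a protein specific to mitochondria, came next at -0.29 ± 0.14. The gene Nme3 lies on the same strand over the 3′ end of Mrps34, so its counts are uncertain.

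In the large subunit the lowest p belonged to Mrpl54, specific to mitochondria, with 269.9, 277.5, 229.8 and 331.9 CPM in Il25 KO and 336.8, 396.8, 324.1 and 365.2 CPM in WT. Il25 KO replicate 4 alone reached the WT range, and the log2 fold change was -0.36 ± 0.12 (SE) with an adjusted p of 0.253 by edgeR. Mrpl12 read 274.7, 317.5, 229.5 and 354.9 CPM in Il25 KO and 349.7, 373.5, 310.1 and 359.8 CPM in WT, with overlap. Its log2 fold change of -0.25 ± 0.13 became -0.14 without Il25 KO replicate 3. The other 4 of the 6 with the lowest p in this subunit were Mrpl55 at -0.27 ± 0.14, Mrpl53 at -0.22 ± 0.12, Mrpl9 at -0.20 ± 0.12 and Mrpl58, which frees peptides from stalled ribosomes, at -0.17 ± 0.10. Mrpl55 and Mrpl53 came to -0.12 each without Il25 KO replicate 3, and Mrpl9 to -0.30. Of the 5 members described before them, Mrps21 had -0.47, Mrps24 -0.31, Mrps11 -0.23, Mrps23 -0.19 and Mrpl54 -0.28 without that library, and Mrps34 had -0.19. Mrpl53 overlaps an annotated gene on its own strand at its 3′ end, so its counts are uncertain.

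Among the most abundant members, Mrps24 and Mrps12 (above) had 2 of the 6 lowest p-values. Of the others, Mrpl34 had a log2 fold change of -0.11 ± 0.13, Mrpl18 of -0.035 ± 0.10 and Mrps28 of -0.090 ± 0.12, and all 3 came out slightly above 0 without Il25 KO replicate 3, at 0.018, 0.003 and 0.022. Mrpl52 had -0.18 ± 0.14, and -0.057 without that library. The highest fitted value belonged to a low member, Mrps33 at 0.31 ± 0.24, with 9.36 to 18.7 CPM in Il25 KO and 8.60 to 12.9 CPM in WT. Mrpl22, with a mean of 53.35 CPM, came next at 0.18 ± 0.12. The lowest fitted values belonged to Mrps36 at -0.56 ± 0.31 and Mrpl15 at -0.47 ± 0.34, which rested on 42 and 30 UMIs over the Il25 KO libraries. Mrpl50, Mrpl23 and Mrps2 came to -0.29 ± 0.19, 0.16 ± 0.27 and 0.050 ± 0.14.

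Mrps18a, Mrps18b and Mrps18c are paralogs related to bacterial bS18, of which Mrps18a sits in the large subunit despite its symbol. Mrps18a was the highest, at 128 ± 15.2 CPM in Il25 KO and 149 ± 11.8 CPM in WT (SD, n = 4), and a fitted difference of -0.22 ± 0.11 in log2. Mrps18c followed at 43.5 ± 11.4 and 50.3 ± 11.97 CPM, with -0.21 ± 0.18. Mrps18b was near the limit of counting, with 14, 6, 11 and 3 UMIs in Il25 KO and 2, 3, 4 and 7 in WT, and was not tested. The order of the 3 levels was the same in all libraries and far exceeded the spread. Mrps30 also sits in the large subunit, and had -0.21 ± 0.12. Leaving out Il25 KO replicate 3 gave -0.14 for Mrps18a, -0.38 for Mrps18c and -0.14 for Mrps30. Mrps36 is now known as a subunit of the alpha-ketoglutarate dehydrogenase complex.

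By symbol, the median log2 fold change was -0.087 for the 41 tested large subunit members, 31 of them below 0, and -0.16 for the 26 tested small subunit members, 22 of them below 0. With Mrps30 and Mrps18a placed in the large subunit and Mrps36 left out, as the structure has it, the medians were -0.11 and -0.15. Without Il25 KO replicate 3 they were -0.083 and -0.087 by symbol. Leaving out WT replicate 2 gave -0.10 for the small subunit, and leaving out Il25 KO replicate 2 or WT replicate 3 gave -0.13 for the large subunit. The distance between the subunits was not tested, and it nearly vanished without Il25 KO replicate 3. Members with a bacterial counterpart had a median of -0.11 (39 genes) and those specific to mitochondria -0.090 (27 genes). Mrps28 was counted with the latter although structural nomenclature relates it to bacterial bS1. So was Mrps18a, although it is related to bacterial bS18.

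The summed level of the large subunit members was 6591, 7209, 5900 and 6915 CPM in Il25 KO replicates 1 to 4 and 7073, 7509, 6925 and 7209 CPM in WT replicates 1 to 4. The mean was 7.32% lower in Il25 KO, at 6654 ± 562 CPM against 7179 ± 249 CPM (SD, n = 4), and the groups overlapped. It was 3.82% lower, at 6905 CPM, when Il25 KO replicate 3 was left out. For the small subunit the sums were 3279, 3468, 2855 and 3673 CPM in Il25 KO and 3793, 3979, 3483 and 3773 CPM in WT. Here the mean was 11.7% lower, at 3319 ± 348 CPM against 3757 ± 205 CPM, with overlap through Il25 KO replicate 4 and WT replicate 3, and 7.56% lower without Il25 KO replicate 3. The ratio of large to small was 2.01, 2.08, 2.07 and 1.88 in Il25 KO and 1.86, 1.89, 1.99 and 1.91 in WT. The ratios of Il25 KO replicates 1, 2 and 3 lay above all WT ratios and that of replicate 4 lay among them.

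**Figure D3:**
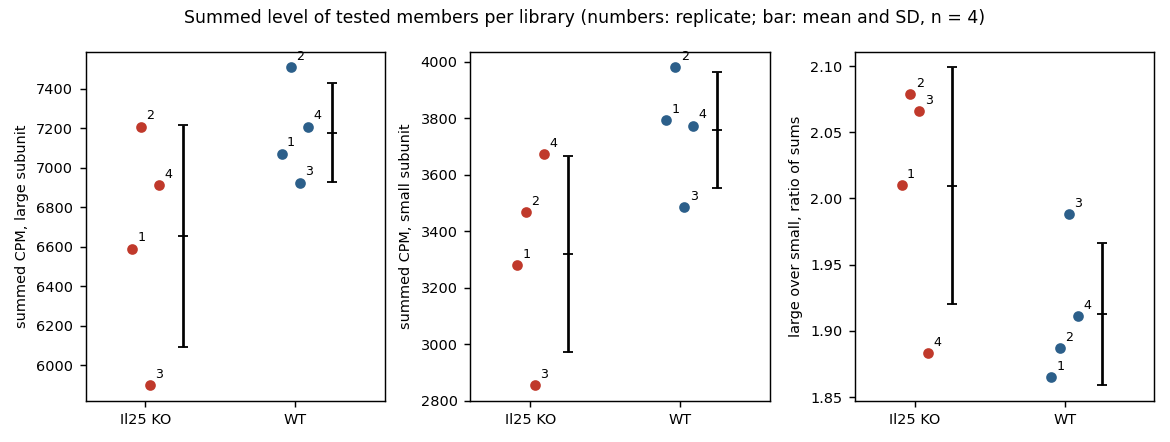
Summed CPM of the tested large subunit genes, of the small subunit genes and their ratio in each library, with the replicate number beside each point and the mean and SD (n = 4) at the side. Il25 KO replicate 3 is the lowest library in both sums, and the groups overlap in all 3 panels. The vertical axes do not start at 0.

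Il25 KO replicate 3 was the lowest of the 8 libraries in 34 of 67 members, 18 of the large and 16 of the small subunit, and WT replicate 2 was the highest in 25. On the log2(CPM + 1) scale, the median deviation of small subunit members from their own mean was -0.081, 0.002, -0.24 and 0.033 in Il25 KO replicates 1 to 4 and 0.054, 0.107, 0.019 and 0.057 in WT replicates 1 to 4. For the large subunit the values were -0.072, 0.059, -0.15 and -0.019 in Il25 KO and 0.039, 0.11, 0.021 and 0.076 in WT. In both subunits Il25 KO replicates 3 and 1 were lowest and WT replicates 2 and 4 highest, with Il25 KO replicates 2 and 4 between them. Without Il25 KO replicate 3, 44 of 68 tested members (64.7%) had a log2 fold change below 0. In that fit 50.1% of all genes above the median member level were below 0, and 51.6% of those at or below it. That library held 2932999 UMIs, where the libraries ranged from 1915365 to 3250718, and it had the highest scaling factor, 1.058. The part of depth and scaling in its low values was not tested.

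**Figure D4:**
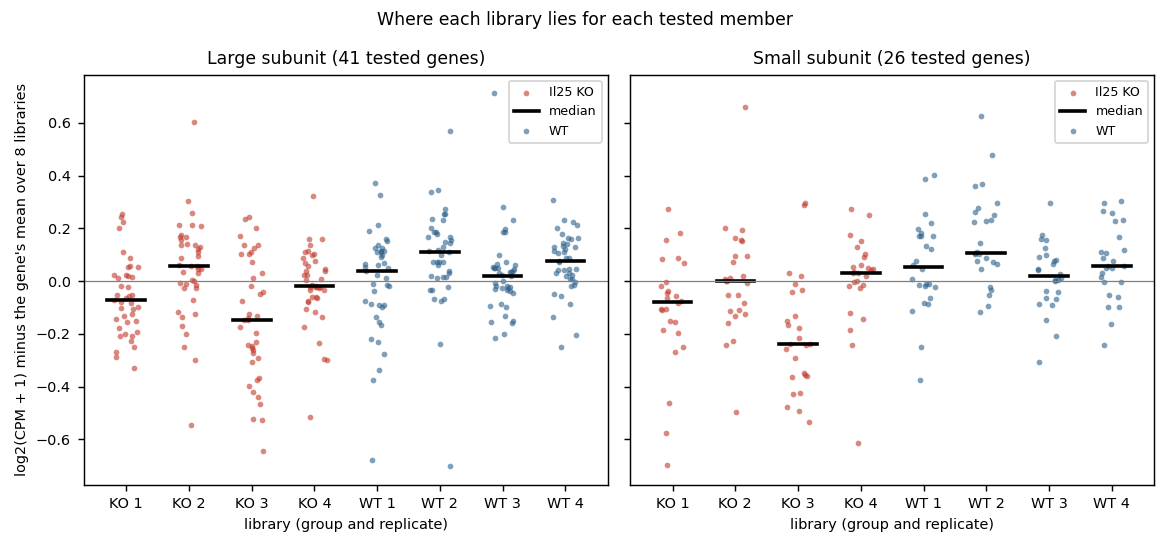
Deviation of each tested gene from its mean over the 8 libraries, as log2(CPM + 1), by library and subunit, with a black bar at the median. Il25 KO replicate 3 lies lowest, with medians of -0.15 (large) and -0.24 (small), and WT replicate 2 highest, with 0.11 in both.

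The low values of Il25 KO replicate 3 were not limited to the mitochondrial ribosome. The list of the respiratory chain and ATP synthase, taken by symbol, holds partners of the proteins this ribosome makes. Its 84 tested genes had a median deviation of -0.16 in that library. The 94 tested genes with symbols of the cytosolic ribosome had -0.15 there, with -0.17 in Il25 KO replicate 1. The median log2 fold changes of these lists were -0.12 and -0.11, close to the -0.11 of the members, and 68 genes of each were below 0. None of either was called, with 12 of 84 and 19 of 94 lower at an unadjusted p under 0.05 by edgeR, and 4 of the 94 higher. Respiratory chain genes summed to 8.85% less in Il25 KO and cytosolic ribosomal genes to 8.17% less, against 8.81% for the members. These were 5.36%, 5.81% and 5.11% when Il25 KO replicate 3 was left out, and cytosolic ribosomal genes came to 12.4% less without Il25 KO replicate 4. The median log2 fold changes without Il25 KO replicate 3 were -0.078 for the respiratory chain and -0.069 for the cytosolic ribosome.

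Members were also described by level and by length. Of the 33 members above the median member level of 134 CPM, 32 had a log2 fold change below 0, with a median of -0.16, against 55.3% and -0.02 for all tested genes above that level. Of the 34 members at or below it, 21 were below 0, with a median of -0.036, against 49.7% and 0.002 for all genes. Without Il25 KO replicate 3, an alternative chosen after seeing the data, the counts were 24 of 33 and 19 of 34, with medians of -0.091 and -0.012, and for all genes the shares below 0 were 50.1% above that level and 51.6% at or below it. When tested protein coding genes were split into 4 groups of about equal number by annotated transcript length, the shortest group, up to 1814 bases, had a median of -0.063 with 63.8% below 0, whereas the other 3 groups had medians of 0.025, 0.03 and 0.015. It held 49 members, of which 40 (81.6%) were below 0, with a median of -0.14. All 6 members with an unadjusted p under 0.05 were in it. The 8, 7 and 3 members in the 3 longer groups had medians of -0.086, -0.086 and -0.027. Without Il25 KO replicate 3, the shortest group had medians of -0.034 for all genes and -0.083 for members. The part of transcript length, of level and of that library in the members' lower values was not tested.

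**Figure D5:**
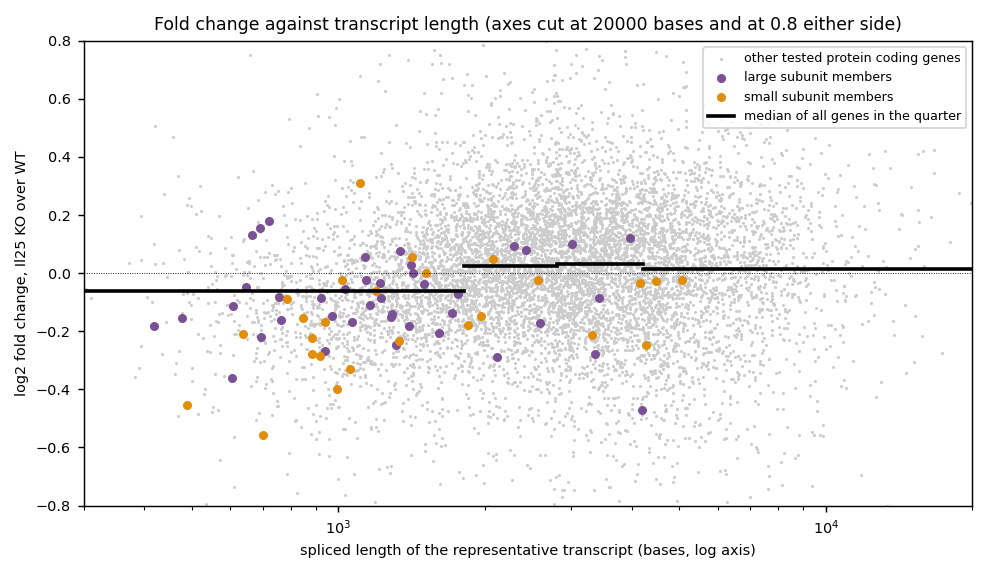
Log2 fold change (Il25 KO over WT) against annotated transcript length on a log axis, for tested genes in grey and members in colour, with black bars at the median of each of the 4 length groups. The shortest group lies at -0.063 and the other 3 between 0.015 and 0.03, and 49 of the 67 members lie in the shortest group, 32 of them below its bar; genes beyond 0.8 in either direction or outside the length range are not drawn.

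Neighbours that share a start region with a member did not follow it in sign more often than not. In 22 head-to-head pairings with both genes tested, the Mrps11 and Mrpl46 pair being counted from each side, the signs matched in 11, and the partners' median log2 fold change was -0.006 against -0.12 for the members. None of the partners was called by edgeR. Sars2, beside Mrps12, had -0.046 ± 0.13, and Ndufs6, beside Mrpl36, had -0.061 ± 0.11 against -0.086 ± 0.12 for Mrpl36. Fau, a cytosolic ribosomal protein gene that starts 59 bases from Mrpl49, had -0.32 ± 0.13 with no overlap of the groups, against -0.070 ± 0.12 for Mrpl49.

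Of the proteins of the mitochondrial ribosome with other symbols, 4 were in the table and 3 were tested. Aurkaip1, which reaches the decoding region of the small subunit, had 360 ± 44.7 CPM in Il25 KO and 400 ± 26.1 CPM in WT (SD, n = 4), with a log2 fold change of -0.15 ± 0.11, or -0.068 without Il25 KO replicate 3. Chchd1, also of the small subunit, had 0.014 ± 0.13 and Ptcd3 -0.15 ± 0.23. Gadd45gip1 of the large subunit did not pass the filter, with 8, 9, 19 and 10 UMIs in Il25 KO and 2, 6, 6 and 6 in WT, or 4.50 ± 1.31 against 1.79 ± 0.652 CPM (SD, n = 4), all Il25 KO values lying above WT. Dap3 was not analysed here.

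Of the other genes that make mitochondrial ribosomes work, none in 5 lists passed edgeR's adjusted threshold with all 8 libraries and genotype as the term. The 24 tested genes of ribosome assembly and rRNA modification had a median log2 fold change of 0.027, with 11 below 0 and none at an unadjusted p under 0.05; without Il25 KO replicate 3 the median was -0.017. Those with the lowest p were Malsu1, which guards the assembling large subunit, at -0.26 ± 0.13, the helicase Ddx28 at 0.30 ± 0.15 and Trmt10c at 0.29 ± 0.15, where Malsu1 and Trmt10c came to -0.14 and 0.18 without that library. The 11 tested genes of translation and membrane insertion, Oxa1l, C1qbp, Taco1 and Mtfmt among them, had a median of -0.062, or -0.21 without that library. Those with the lowest p were the elongation factor Tsfm at -0.33 ± 0.15, the initiation factor Mtif2 at -0.33 ± 0.17 and the recycling factor Mrrf at 0.20. The 17 tested genes that charge mitochondrial tRNAs, which are tRNA synthetases except for Gatb, Gatc and Qrsl1, had a median of -0.046. It was -0.007 without that library. The lowest p-values were those of Iars2 at -0.24 (-0.41 without that library), Vars2 at -0.25 and Gatb at -0.28. None of the 17 was at an unadjusted p under 0.05 by edgeR.

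Among 13 genes that maintain or express mitochondrial DNA, 10 were below 0, with a median of -0.065. Slirp, which with Lrpprc stabilises mitochondrial mRNAs, read 5.24, 29.1, 14.9 and 22.6 CPM in Il25 KO and 22.4, 44.7, 39.7 and 34.9 CPM in WT. The groups overlapped, and the log2 fold change was -1.04 ± 0.30 (SE) with an adjusted p of 0.199 by edgeR, which spanned 0.0242 to 0.557 over the alternatives. Ssbp1, the single-strand DNA binding protein of mitochondria, read 93.2, 100.3, 76.7 and 92.9 CPM in Il25 KO and 120.9, 107.9, 111.8 and 116.9 CPM in WT. All its Il25 KO values lay below WT, at -0.34 ± 0.11 (SE) with an adjusted p of 0.238 by edgeR. Tfb2m, a mitochondrial transcription factor, had -0.49 ± 0.31 at 3.98 and 5.63 CPM.

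The 8 tested regulators of nuclear genes for mitochondria had a median of 0.009, or -0.026 without Il25 KO replicate 3. Myc, which is known to raise genes of ribosome and mitochondrial biogenesis, read 115.3, 55.6, 144.0 and 78.7 CPM in Il25 KO and 55.5, 47.4, 46.9 and 66.7 CPM in WT. The highest values were those of Il25 KO replicates 3 and 1, and replicate 2 lay within the WT range. Its log2 fold change was 0.88 ± 0.21 (SE) with an adjusted p of 0.0988 by edgeR, 0.00354 with a depth covariate and 0.00717 without Il25 KO replicate 2. Over all alternatives it spanned 0.00354 to 0.362. Esrra, a nuclear receptor of respiratory genes, had -0.22, or -0.13 without Il25 KO replicate 3, and Yy1 0.16.

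In the authors' deposited table, which lists a WT over KO comparison for all 10913 genes, 0 of 72 members had an adjusted p under 0.05, against 36 of all genes. The authors' deposited table gave 6 of the 72 members an unadjusted p under 0.05, against 771 of all 10913 genes. It had 57 of 72 lower in Il25 KO, as were 5609 of all genes.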

How the data were processed

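Poly(A) RNA of ILC2 sorted from dissociated mouse thymus was measured by MARS-seq, per the labels' protocols, with 4 libraries for each genotype. Tools listed in the submitters' processing notes are STAR 2.5.2b, HTSeq, cutadapt, bcl2fastq and DESeq2, with the build mm10. Their roles, the annotation and the handling of strand and multiply matching reads were not given in the sources used here. One deposited table holds, per the file headers, the raw UMI counts of each gene in each library, which were the values tested. The authors also deposited normalized signal values, regularized log2 values and log2 fold changes, and p-values with adjusted p-values; of these, the comparison alone was read.

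Tests used edgeR 4.0.16 under R 4.3.3. The filter filterByExpr (minimum count 10) kept 9016 of 10913 genes, libraries were scaled by TMM (factors 0.949 to 1.058), and all 8 libraries entered a quasi-likelihood fit on genotype, which was checked on simulated counts. Standard errors are those of the fitted log2 fold change. CPM uses TMM-scaled library sizes, and deviations a pseudocount of 1 CPM. Alternatives were other scalings and filters, DESeq2 1.42.0, limma-voom (limma 3.58.1), a depth covariate, a replicate block and leaving out each library.

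The members and all lists were chosen with earlier results of these data known, so no p is given over a list. Named were the 6 lowest p-values and the 3 highest and 3 lowest levels in each subunit, the Mrps18 paralogs, Mrpl12, Mrpl58, Mrps30, Mrps36, proteins with other symbols, members that failed the filter, and up to 3 genes with the lowest p per pathway list. Mrpl22 and the genes with head-to-head starts (Mrpl46, Mrpl36, Mrpl43, Mrpl49 and the neighbours) were chosen after their values were seen. Myeloid, epithelial, NK and ILC3 marker lists were summed too, and are given with the other observations.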

Additional observations from a re-analysis of the deposited data

Results flagged for a closer look

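Over 92 groups of 4 libraries, from the named members and pathway genes and the summed levels, 4 had a single library far from the 3 others; chance alone gives about 1 in 20. Mrps2, of the small subunit, read 40.4 CPM in WT replicate 3 and 33.7 to 34.8 CPM in the other WT libraries. Tsfm read 37.0 CPM in WT replicate 3 against 50.8 to 52.2 CPM in the others. In Il25 KO replicate 3, Iars2, the mitochondrial isoleucyl-tRNA synthetase, read 69.6 CPM against 47.3 to 48.1 CPM in the others, and Esrra read 29.1 CPM against 37.1 to 37.9 CPM.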

How the results depend on the processing

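No member was called under any of 9 alternatives or without any library, and an unadjusted p under 0.05 was reached by 4 to 12 members. With median of ratios scaling this was 6 of 67 members and 983 of all 9016 genes by edgeR. It was 7 and 987 with upper quartile scaling, and 6 and 955 with library size alone. With no filter it was 8 of 72 members and 1126 of 10913 genes. For the other alternatives the share over all genes is not given here. All genes called, 19 in number, became 60 with the replicate block, 40 with the depth covariate and 49 with DESeq2, and ranged from 1 (without WT replicate 2) to 39 (without Il25 KO replicate 2), with 4 without WT replicate 4. The labels do not say that replicate numbers pair the libraries. Deviations of same-numbered libraries had correlations of 0.138, -0.00602, -0.00025 and 0.0887, and those of other pairs ran from -0.149 to 0.242. Not every library correlated best with its own number, and values this weak cannot settle the pairing. The block left the count of members at 0. With library size alone the median of all genes was 0.027, and 47 members (70.15%) were below 0, against 44.75% of all genes. The large subunit median spanned -0.13 to -0.081 when libraries were left out and -0.12 to -0.062 otherwise; the small subunit median spanned -0.18 to -0.087 and -0.19 to -0.14.

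Of 728 values for 43 named genes, 710 kept their direction and side of the threshold, 15 changed sign and 3 passed the threshold. Chchd1, at 0.014, became -0.004 with the replicate block and with the depth covariate and -0.009 with limma-voom, and spanned -0.095 to 0.103 over the libraries left out. Leaving out libraries also turned Mrps2 (-0.044 to 0.125), Ptcd3 (-0.285 to 0.006), Mrpl23 (-0.015 to 0.537), Mrpl18 (-0.069 to 0.003), Mrpl34 (-0.182 to 0.018) and Mrps28 (-0.157 to 0.022). Slirp passed with the replicate block (-1.06, edgeR adjusted p 0.0242; 0.0242 to 0.557 over alternatives), and Myc with the depth covariate (1.08, edgeR adjusted p 0.00354) and without Il25 KO replicate 2 (1.07, edgeR adjusted p 0.00717; 0.00354 to 0.362 over alternatives). The causes were not tested. With 4 libraries a group and a median standard error of 0.117, differences of the size seen in members were mostly not detectable singly.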

Other observations

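Markers of further cell types were present at low to moderate levels. The 4 myeloid and dendritic markers in the table summed to 268 to 336 CPM in Il25 KO and 256 to 394 CPM in WT. Most of that sum was Cst3, with means of 261 and 277 CPM. The 3 of thymic epithelium summed to 10.5 to 13.1 and 10.5 to 20.2 CPM, and the 3 of ILC3 to 20.6 to 35.9 and 27.3 to 60.7 CPM. The 2 of NK cells and ILC1 summed to 447 to 627 and 515 to 682 CPM. Nearly all of this was Gzma, with means of 505 and 626 CPM. Tbx21 had 15 UMIs over the Il25 KO libraries and 10 over WT, and Ncr1, Eomes, Klrb1c and Prf1 were not in the table. WT replicate 1 held the highest sum of the myeloid, epithelial and ILC3 lists, as of the T cell list, whereas it was near the other WT libraries in the summed level of both mitochondrial ribosomal subunits.

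Another annotated gene lay over the 3′ end of 16 members (22.2%), whose counts are uncertain for that reason, 5 on the same strand and 13 on the other, against 21.9% of tested protein coding genes. Besides Mrps34 and Mrpl53, those with a gene on the same strand were Mrpl2, Mrpl33 and Mrps6.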
